A study of Sus scrofa with 20 samples.

Results

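The brush border digestive hydrolases are the enzymes of the microvillus membrane of small intestinal enterocytes. The set was chosen by gene symbol and held 9 genes, the disaccharidases LCT, SI, MGAM and TREH, the peptidases ANPEP, DPP4 and MME, the intestinal alkaline phosphatase gene ALPI, and VIL1, whose product villin bundles the actin of the microvillus core. In the annotation used here, 3 of the 9 genes had a probe set, namely ANPEP, DPP4 and VIL1, with 1 probe set each (Entrez genes 397520, 397492 and 100156373) among the 23999 probe sets tested, which name 6765 genes in all. LCT, SI, MGAM, TREH, MME and ALPI were not analysed here. The values below therefore describe a pair of peptidases and the microvillus protein villin, and no disaccharidase.

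Enterocytes finish the digestion of sugars and peptides at their apical surface, where hydrolases are anchored in the membrane of densely packed microvilli. ANPEP (aminopeptidase N) removes single amino acids from the N-terminus of peptides, and DPP4 (dipeptidyl peptidase 4) removes dipeptides that end in proline or alanine. DPP4 is also the T cell surface protein CD26, and ANPEP is also found on myeloid cells as CD13. In mammals the disaccharidases are known for their change around weaning, when milk gives way to solid feed.

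Gene expression was measured in the ileal mucosa of 20 crossbred piglets (Landrace × Large White × Duroc), with 1 Affymetrix porcine array per piglet. The weaned piglets were separated from the sow at 21 days of age and sampled at 28 days (21W28D, n = 3) or 35 days (21W35D, n = 3), on a commercial weaning diet. The suckling piglets stayed with the sow, had milk as their only feed and were sampled at 14 days (S14D, n = 3), 21 days (S21D, n = 4), 28 days (S28D, n = 4) or 35 days (S35D, n = 3). No source used here ties an array to a litter, so the p-values below measure the spread between piglets that may be related. The labels and the methods describe the sampled stretch of ileum differently. Values are log2 signals after gcRMA normalization, a scale on which 1 unit is a 2-fold difference, and they ran between 2.08 and 16.4.

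The labels of S35D and 21W28D were treated as uncertain. Across all probe sets, the 21W35D mean was closer than the S28D mean to each of the 3 arrays that carry the label S35D, and for 2 of the 3 arrays with the label 21W28D it was the S28D mean that lay closer. As labelled, limma called 1570 probe sets between S35D and S28D and 0 between 21W28D and S28D, and an exchange of the labels turns these counts round. The methods' t-test, at an unadjusted p under 0.05 and a 2-fold minimum, gave 1530 and 36 probe sets in these comparisons as labelled. The deposited values alone do not settle which labels are right. Both groups are therefore named by their labels, and the comparisons that hold either group are also given with the labels exchanged. Replicate 2 of 21W35D stood apart, with the lowest correlation to the rest of its group (r = 0.970), and its values are shown separately. Array medians ran between 5.07 and 5.34. Of 14 epithelial marker genes, 11 had a probe set and none of these was within 1 log2 unit of the lowest value in all arrays. FABP6, the bile acid binding protein of ileal enterocytes, averaged between 13.84 in S14D and 15.98 in the arrays labelled S35D. It does not stand for the 6 ileal enterocyte markers measured. FABP6 was higher in S21D than in S14D piglets by 1.98, but 4 of the 6 were lower, with a median difference of -0.87. Of 8 myeloid markers measured, CD14, ITGAM, S100A8, S100A9 and S100A12 were within 1 log2 unit of the lowest value in every array. AIF1 was well above it, with means of 9.89 in S14D and 11.11 in S21D piglets. It was the 1 myeloid marker called between these groups (difference 1.22, limma adjusted p = 0.00151), where limma called 14.9% of all probe sets.

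ANPEP was bright in every piglet. It was 14.60, 14.24 and 13.94 in the arrays labelled 21W28D, and 14.10 and 14.37 in 21W35D replicates 1 and 3, with 14.99 in replicate 2. In suckling piglets it was 14.24, 14.39 and 14.42 at 14 days, 13.92, 14.38, 13.89 and 14.48 at 21 days, and 14.11, 13.63, 13.33 and 14.56 at 28 days. The arrays labelled S35D had 13.99, 14.54 and 14.47. In each of the 7 comparisons below the groups overlapped, and the S28D piglets alone spread from the lowest of the 20 values up to 14.56. The range of ANPEP over the 20 arrays was 1.65 log2 units, or 3.15-fold.

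DPP4 varied more between piglets. It was 13.64, 12.14 and 12.94 in the arrays labelled 21W28D, and 13.27 and 13.53 in 21W35D replicates 1 and 3, with 14.26 in replicate 2. In suckling piglets it was 13.19, 13.60 and 13.58 at 14 days, 12.89, 13.27, 12.36 and 13.51 at 21 days, and 13.42, 12.76, 12.30 and 13.04 at 28 days. The arrays labelled S35D had 13.53, 13.75 and 13.55, all above the 4 S28D piglets. The range of DPP4 was 2.13 log2 units (4.37-fold), with its lowest value in replicate 2 of the arrays labelled 21W28D.

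VIL1, which is expressed in the same cells and carries no enzyme activity on food, followed a like order. It was 14.56, 13.41 and 13.60 in the arrays labelled 21W28D, and 13.86 and 14.00 in 21W35D replicates 1 and 3, with 14.99 in replicate 2. In suckling piglets it was 13.97, 14.10 and 14.13 at 14 days, 13.72, 13.88, 13.40 and 13.88 at 21 days, and 13.86, 13.31, 13.06 and 13.79 at 28 days. The arrays labelled S35D had 14.30, 14.25 and 14.09. The S21D piglets all lay below the S14D piglets, and the arrays labelled S35D all lay above the S28D piglets. The range of VIL1 was 1.93 log2 units (3.81-fold).

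**Figure D1:**
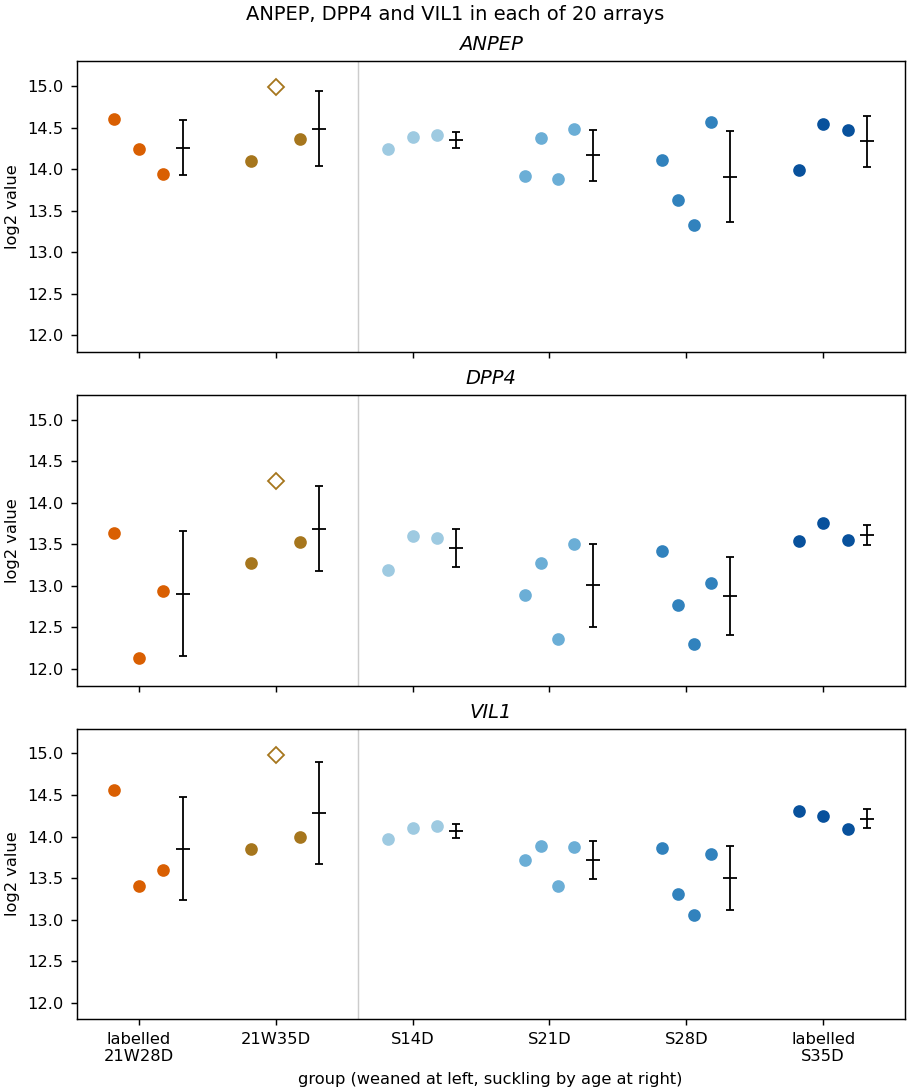
Log2 signal of ANPEP, DPP4 and VIL1 (vertical axes) in each array, with weaned groups at left and suckling groups by age at right. Each point is 1 piglet, the open diamond is 21W35D replicate 2, and the black marks are the group mean and SD. The open diamond is the highest of the 20 values for each gene, and the S28D group has the lowest mean of each.

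In the order of group means, 21W35D was highest and S28D lowest for all 3 genes. ANPEP averaged 14.49 ± 0.45 in 21W35D piglets and 13.91 ± 0.54 in S28D piglets (SD, n = 3 and 4). DPP4 averaged 13.69 ± 0.51 in 21W35D piglets and 12.88 ± 0.47 in S28D piglets, and VIL1 averaged 14.28 ± 0.62 and 13.50 ± 0.38. The first place of 21W35D rested on replicate 2, since the other 21W35D arrays averaged 14.23 for ANPEP, 13.40 for DPP4 and 13.93 for VIL1. Between neighbours in these orders, the widest gap was 0.45 log2 units, between S14D and S21D for DPP4. That gap was smaller than the SD of 0.50 within S21D, and the remaining gaps were at most 0.25.

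The first question was whether the genes changed with age in suckling piglets. From 14 to 21 days all 3 genes had lower means, with differences of -0.18 for ANPEP, -0.45 for DPP4 and -0.35 for VIL1. In that comparison 14.9% of all probe sets passed limma's test at a Benjamini-Hochberg adjusted p under 0.05, but 0 of the 3 genes did. The 95% interval of the difference was -0.79 to 0.43 for ANPEP, -1.22 to 0.32 for DPP4 and -0.98 to 0.28 for VIL1. The groups did not overlap for VIL1, which was lower in S21D, as was the case for 13.8% of all probe sets. From 21 to 28 days the differences were -0.25, -0.13 and -0.22 in the same gene order, and 0 of 3 genes passed, against 0.00417% of all probe sets.

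The arrays labelled S35D were higher than the S28D piglets for all 3 genes, without passing the adjusted test. VIL1 averaged 14.22 ± 0.11 in the arrays labelled S35D and 13.50 ± 0.38 in S28D piglets (SD, n = 3 and 4). The difference of VIL1 was 0.71 log2 units (95% interval 0.08 to 1.35), or 1.64-fold, with an unadjusted p of 0.0296 and an adjusted p of 0.157 in limma's test. DPP4 averaged 13.61 ± 0.12 in the arrays labelled S35D and 12.88 ± 0.47 in S28D piglets, a difference of 0.73 (95% interval -0.04 to 1.50, limma adjusted p = 0.240). ANPEP differed by 0.42 (95% interval -0.19 to 1.03). In this comparison 6.54% of all probe sets passed the adjusted test and 0 of the 3 genes did, and groups that did not overlap with the higher values in the arrays labelled S35D, seen for DPP4 and VIL1, made up 8.88% of all probe sets. When S35D and 21W28D exchanged labels, the differences were 0.35 for VIL1, 0.03 for DPP4 and 0.35 for ANPEP.

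Over the 4 suckling ages together, limma's F test called 20.6% of all probe sets and 0 of the 3 genes. The largest difference between age means was 0.44 log2 units for ANPEP (adjusted p = 0.657), 0.73 for DPP4 (adjusted p = 0.380) and 0.71 for VIL1 (adjusted p = 0.261). Under exchanged labels it was 0.44, 0.58 and 0.56 in the same gene order, also with 0 of 3 called.

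The second question was whether weaning changed these genes at the same age. At 28 days, the arrays labelled 21W28D averaged 14.26 ± 0.33 and S28D piglets 13.91 ± 0.54 for ANPEP. DPP4 averaged 12.91 ± 0.75 in the arrays labelled 21W28D and 12.88 ± 0.47 in S28D piglets. VIL1 averaged 13.86 ± 0.62 in the arrays labelled 21W28D and 13.50 ± 0.38 in S28D piglets. The differences were 0.35 (95% interval -0.26 to 0.96) for ANPEP, 0.03 (-0.75 to 0.80) for DPP4 and 0.35 (-0.28 to 0.98) for VIL1. Limma called 0 of the 3 genes, and 0% of all probe sets. This comparison depends on the labels, since with S35D and 21W28D exchanged the weaned piglets differed from S28D by 0.42 for ANPEP, 0.73 for DPP4 and 0.71 for VIL1, and limma called 1570 probe sets in all but 0 of the 3 genes (VIL1, unadjusted p = 0.0296, adjusted p = 0.157).

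Against S21D piglets, the age at which weaning took place, the arrays labelled 21W28D differed by 0.09 for ANPEP, -0.10 for DPP4 and 0.14 for VIL1. Limma again called 0 of the 3 genes and 0% of all probe sets. The 95% intervals were -0.51 to 0.70 for ANPEP, -0.87 to 0.67 for DPP4 and -0.50 to 0.77 for VIL1. Exchanged labels gave 0.17 for ANPEP, 0.60 for DPP4, which turned in sign, and 0.50 for VIL1, with 857 probe sets and 0 of the 3 genes called.

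At 35 days, 21W35D piglets and the arrays labelled S35D were close for all 3 genes. ANPEP averaged 14.49 ± 0.45 in 21W35D piglets and 14.33 ± 0.30 in the arrays labelled S35D (SD, n = 3 each). DPP4 averaged 13.69 ± 0.51 in 21W35D piglets and 13.61 ± 0.12 in the arrays labelled S35D, and VIL1 averaged 14.28 ± 0.62 in 21W35D piglets and 14.22 ± 0.11 in the arrays labelled S35D. The differences were 0.15 (95% interval -0.50 to 0.80) for ANPEP, 0.08 (-0.75 to 0.90) for DPP4 and 0.06 (-0.61 to 0.74) for VIL1, with 0 of 3 genes called by limma and 0.0458% of all probe sets. Without 21W35D replicate 2 these differences were -0.10 for ANPEP, -0.21 for DPP4 and -0.29 for VIL1, also with 0 of 3 called. Under exchanged labels, with all arrays, they were 0.23 for ANPEP, 0.78 for DPP4 and 0.43 for VIL1, with 0 of 3 called.

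Within the weaned piglets, 21W35D exceeded the arrays labelled 21W28D by 0.23 for ANPEP, 0.78 for DPP4 and 0.43 for VIL1. Limma called 0 of the 3 genes, against 0.0792% of all probe sets, and the interval of DPP4 was -0.04 to 1.61. Without 21W35D replicate 2 the differences were -0.02, 0.50 and 0.07 in the same gene order. Exchanging the labels, with all arrays, made them 0.15, 0.08 and 0.06, with 0 of 3 called. The difference of the weaning differences at 35 and 28 days was -0.20 (95% interval -1.09 to 0.69) for ANPEP, 0.05 (-1.08 to 1.18) for DPP4 and -0.29 (-1.21 to 0.64) for VIL1, with 0 of 3 genes and 0% of all probe sets called. Exchanging the labels leaves this difference unchanged by arithmetic, so the exchange is no check on it.

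An unadjusted limma p under 0.05 was reached by 1 of the 3 genes, VIL1, between the arrays labelled S35D and S28D, where 23.3% of all probe sets reached it. In the other comparisons 0 of the 3 genes did, against 28.4% of all probe sets for S21D with S14D, 1.62% for S28D with S21D, 2.53% and 1.88% for the arrays labelled 21W28D with S21D and with S28D, 5.86% for 21W35D with the arrays labelled S35D and 8.86% for 21W35D with the arrays labelled 21W28D. The F test and the difference of the weaning differences likewise had 0 of 3, against 34% and 2.54%. The test named in the methods, with its minimum of 2-fold, also called 0 of the 3 genes in each of the 7 comparisons. The p of VIL1 between the arrays labelled S35D and S28D rested on single arrays, and without 1 of S28D replicates 2 and 3 or replicates 1 and 2 of the arrays labelled S35D it was above 0.05, with differences between 0.57 and 0.83 log2 units over the 7 arrays left out in turn.

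**Figure D2:**
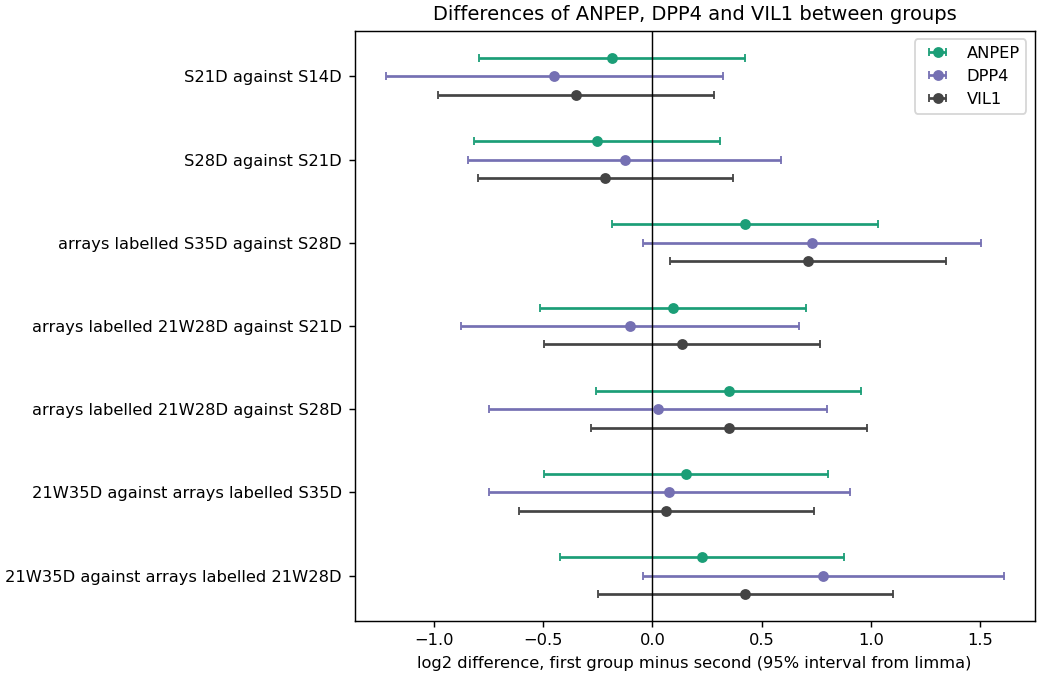
Log2 difference of ANPEP, DPP4 and VIL1 (horizontal axis, first group minus second) in each of the 7 comparisons (vertical axis), with 95% intervals from limma. The interval of VIL1 between the arrays labelled S35D and S28D, 0.08 to 1.35, is the one of the 21 that leaves out 0.

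The 3 genes moved together from piglet to piglet, and with other epithelial genes. An epithelial score was taken as the mean of 11 centred epithelial marker genes, none of them among the 3. Over the 20 arrays the score correlated with VIL1 at r = 0.87 (rho = 0.94), with DPP4 at r = 0.83 (rho = 0.89) and with ANPEP at r = 0.69 (rho = 0.63). Permutation of the arrays gave two-sided p-values for r of 1e-05, the smallest that 100000 permutations can give, for VIL1, 2e-05 for DPP4 and 0.00093 for ANPEP, or 3e-05, 3e-05 and 0.00093 after Benjamini-Hochberg adjustment over the 3 relations. The permutation p-values for rho, adjusted likewise, were 1.5e-05, 1.5e-05 and 0.00345. Arrays were permuted without regard to group, so these p-values also take in differences between groups. Without the 2 arrays farthest from the median score, S28D replicate 3 and replicate 1 of the arrays labelled S35D, r was 0.85, 0.83 and 0.80. Without 21W35D replicate 2, r was 0.89 for VIL1, 0.82 for DPP4 and 0.65 for ANPEP. Taken as deviations from the group means, r was 0.84 for VIL1, 0.74 for DPP4 and 0.69 for ANPEP, so the relation was also seen among piglets of the same group. No p-value was computed for these deviations.

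The score itself differed between groups. It lay between 0.32 and 0.78 in the arrays labelled S35D and between -0.77 and -0.10 in S28D piglets, which did not overlap, and the mean difference of 0.94 log2 units exceeded those of the 3 genes. Of the 11 epithelial genes, 4 rose in the arrays labelled S35D relative to S28D piglets and none fell, the 4 being CDH1, CDH17, KRT18 and CLDN4. These calls depend on the labels, as the arrays labelled 21W28D, which take the place of S35D when the labels are exchanged, differed from S28D by a mean of 0.17 over the 11 genes. Limma called 0 of the 11 there, and 0% of all probe sets. In S21D piglets the score was between -0.38 and 0.05, and in S14D piglets between 0.03 and 0.48. In bulk mucosa, fewer cells of a type and less RNA per cell cannot be told apart. After subtraction of the score, the SD over the 20 arrays was 0.22 for VIL1, against 0.44 before, 0.30 for DPP4, against 0.54 before, and 0.32 for ANPEP, against 0.38 before. The differences between the arrays labelled S35D and S28D then became -0.23 for VIL1, -0.21 for DPP4 and -0.52 for ANPEP, and those between the arrays labelled 21W28D and S28D 0.18, -0.15 and 0.18. These follow by arithmetic, since the score difference is taken off each gene at a slope of 1. The fitted slopes on the score were 0.92 for VIL1, 1.06 for DPP4 and 0.61 for ANPEP, so ANPEP is overcorrected most.

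**Figure D3:**
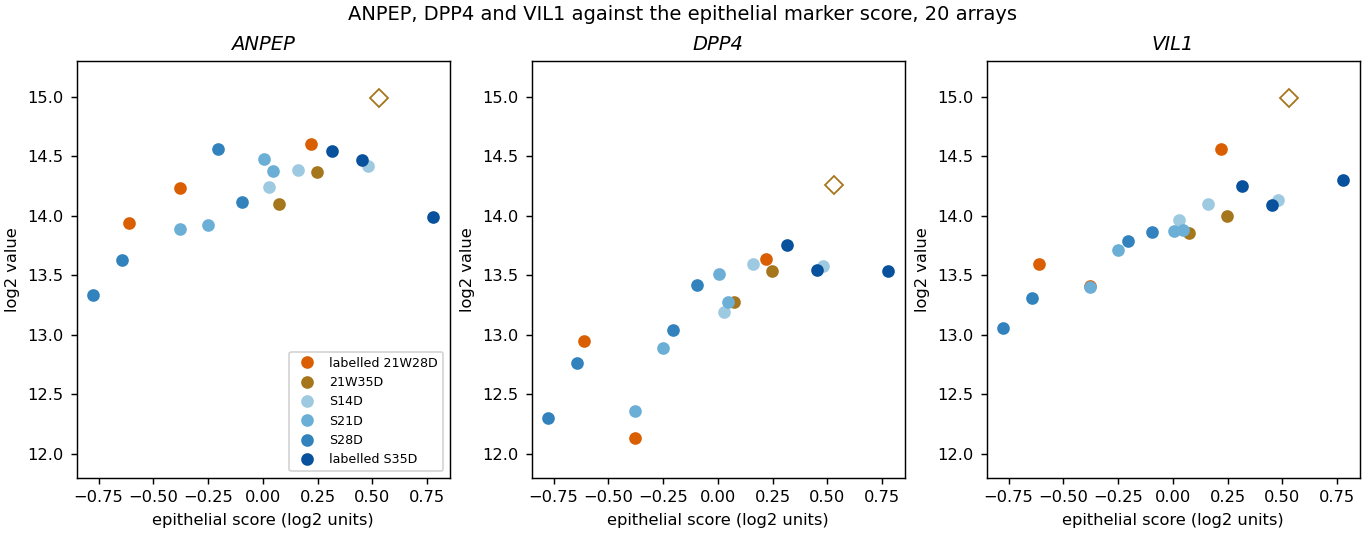
Log2 signal of ANPEP, DPP4 and VIL1 (vertical axes) against the epithelial marker score (horizontal axes, log2 units), with 1 point per array coloured by group and 21W35D replicate 2 as an open diamond. Values rise with the score in all 3 panels (r = 0.69, 0.83 and 0.87), and 21W35D replicate 2 lies above the other arrays.

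Markers of other cells also differed in the comparisons between groups. Between S21D and S14D piglets, limma called 14.9% of all probe sets. Of the T cell markers, 5 of 9 were called and rose (median difference 1.48), as did 2 of 3 B cell markers (median 2.38). Of 9 crypt and cell cycle genes, 6 were called higher and 1 was called lower (median 1.83), and 1 of 8 smooth muscle markers was called lower (median -0.93). The difference of DPP4, which T cells also carry, was -0.45 there. Between the arrays labelled S35D and S28D the medians were 0.37 for T cell, -1.60 for B cell and 1.14 for smooth muscle markers, with no marker of these 3 lists called, against 6.54% of all probe sets. Between the arrays labelled 21W28D and S28D, which an exchange of labels puts in that place, they were 0.89, -0.21 and 0.14, again with none called, where limma called 0% of all probe sets. Among the arrays labelled S35D, the smooth muscle list averaged 9.49 in replicate 3 and 7.17 and 6.75 in replicates 1 and 2. The B cell list averaged 9.40 in replicate 1 and 11.76 and 11.42 in replicates 2 and 3. Between 21W35D and the arrays labelled S35D, where DPP4 differed by 0.08, the T cell median was 1.13. Limma called 1 of the 9 T cell markers there, CD3G, against 0.0458% of all probe sets. Between 21W35D and the arrays labelled 21W28D, where DPP4 differed by 0.78, the medians were 0.50 for T cell, -1.26 for B cell, -0.87 for crypt and cell cycle and -0.05 for smooth muscle markers, with none called, against 0.0792% of all probe sets. In 21W35D replicate 2 the B cell list averaged 8.09, against 12.01 and 11.77 in replicates 1 and 3. The crypt and cell cycle list averaged 9.69 there, against 10.75 and 10.71, and the T cell list 6.49, against 7.98 and 7.95. Between the arrays labelled 21W28D and S21D piglets, where DPP4 differed by -0.10, the T cell median was 1.38. None was called, but limma called 0% of all probe sets there. All 9 T cell markers were higher, and 6 had an unadjusted limma p under 0.05, against 2.53% of all probe sets. Those T cell values are given as labelled only. The part of these cells in the values of ANPEP, DPP4 and VIL1 was not tested.

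Likeness to each of the 3 genes was measured as Pearson's r over the 20 arrays among 5962 named genes, as a description without a test. The genes closest to VIL1 were DHDH (r = 0.97), ATP8B1 (0.95), MFSD9 (0.94), OCRL (0.94) and TOMM40L (0.93). Those closest to DPP4 were MFSD9 (0.94), SMIM22 (0.90), CLCN2 (0.90), DHDH (0.89) and the zinc transporter SLC39A5 (0.89). Those closest to ANPEP were ABHD14B (0.90), the triglyceride lipase PNPLA2 (0.87), TMBIM6 (0.87), CES3 (0.87) and ALAS1, which starts haem synthesis (0.87). Among the 3 genes themselves r was 0.92 between DPP4 and VIL1, 0.82 between ANPEP and VIL1, and 0.74 between ANPEP and DPP4. Without 21W35D replicate 2 these were 0.90, 0.76 and 0.67. The r of the closest genes then lay between 0.90 and 0.96 for VIL1, 0.86 and 0.93 for DPP4, and 0.82 and 0.87 for ANPEP. DHDH and MFSD9 were in the lists of both DPP4 and VIL1, and no gene in the list of ANPEP was in either of the others.

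Other hydrolases of the brush border were read over the suckling ages as labelled. Of 23 such genes listed, 8 had a probe set, and limma's F test over the suckling ages called 3 of these 8, namely DPEP1, MEP1B and XPNPEP2, against 20.6% of all probe sets. Whether 3 of 8 exceeds that share was not tested. DPEP1, a membrane dipeptidase, was 12.35, 12.82 and 12.52 at 14 days, 11.59, 11.96, 12.15 and 12.51 at 21 days, 11.91, 11.45, 10.73 and 10.82 at 28 days, and 8.37, 10.02 and 10.05 in the arrays labelled S35D. Its age means spanned 3.08 log2 units (limma F test, adjusted p = 0.00299), and the call held when each suckling array was left out in turn. When both groups exchanged labels, the span was 1.33 and the adjusted p of the F test 0.251.

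DPEP1 fell in the arrays labelled S35D relative to S28D piglets, averaging 9.48 ± 0.96 in the arrays labelled S35D and 11.23 ± 0.55 in S28D piglets (SD, n = 3 and 4). The difference was -1.74 ± 0.46 (SE, limma adjusted p = 0.0403), opposite in direction to those of ANPEP, DPP4 and VIL1 in the same comparison. This call was lost without any 1 of 6 of the 7 arrays compared, that is, all but replicate 2 of the arrays labelled S35D, with an adjusted p of up to 0.209, and the difference was 0.64 with the labels exchanged. In 21W35D piglets DPEP1 averaged 11.44 ± 0.75, or 1.95 log2 units above the arrays labelled S35D, and the groups did not overlap, but the difference did not pass the test (limma adjusted p = 0.358). It was -0.43, with overlapping groups, against the arrays labelled 21W28D, which are the suckling piglets of that age if the labels are exchanged.

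MEP1B, the beta subunit of the metalloprotease meprin, was highest at 14 days. Its brightest probe set read 14.61, 15.10 and 15.24 in S14D piglets, between 13.70 and 14.19 in S21D piglets, between 12.61 and 13.64 in S28D piglets and between 13.46 and 14.07 in the arrays labelled S35D. The age means spanned 1.68 log2 units (limma F test, adjusted p = 0.0318), and S21D lay below S14D without overlap, by 1.04 log2 units, with an adjusted p of 0.0794. Of its 3 probe sets, another passed the F test (adjusted p = 0.0494) and the dimmest did not (adjusted p = 0.777). XPNPEP2, a membrane aminopeptidase that cleaves before proline, averaged 10.80 ± 0.37, 10.13 ± 0.53 and 9.30 ± 0.35 at 14, 21 and 28 days. It averaged 9.17 ± 0.27 in the arrays labelled S35D (limma F test, adjusted p = 0.0217). The F test of XPNPEP2 did not pass without S14D replicate 2 (adjusted p = 0.0798) or with the labels exchanged (adjusted p = 0.0714), and that of MEP1B did not pass without S14D replicates 2 or 3 or S28D replicates 3 or 4 (adjusted p up to 0.130). MEP1B passed with the labels exchanged (adjusted p = 0.0406).

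The remaining hydrolases did not pass in any of these tests. ENPEP (aminopeptidase A) was nearly level, with group means between 15.17 and 15.37, and CPM and GGT1 varied between piglets of the same group. TMPRSS15 and ACE were at or near the lowest value in 19 of the 20 arrays, and in 21W35D replicate 2 TMPRSS15 read 7.70 and ACE 4.23.

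**Figure D4:**
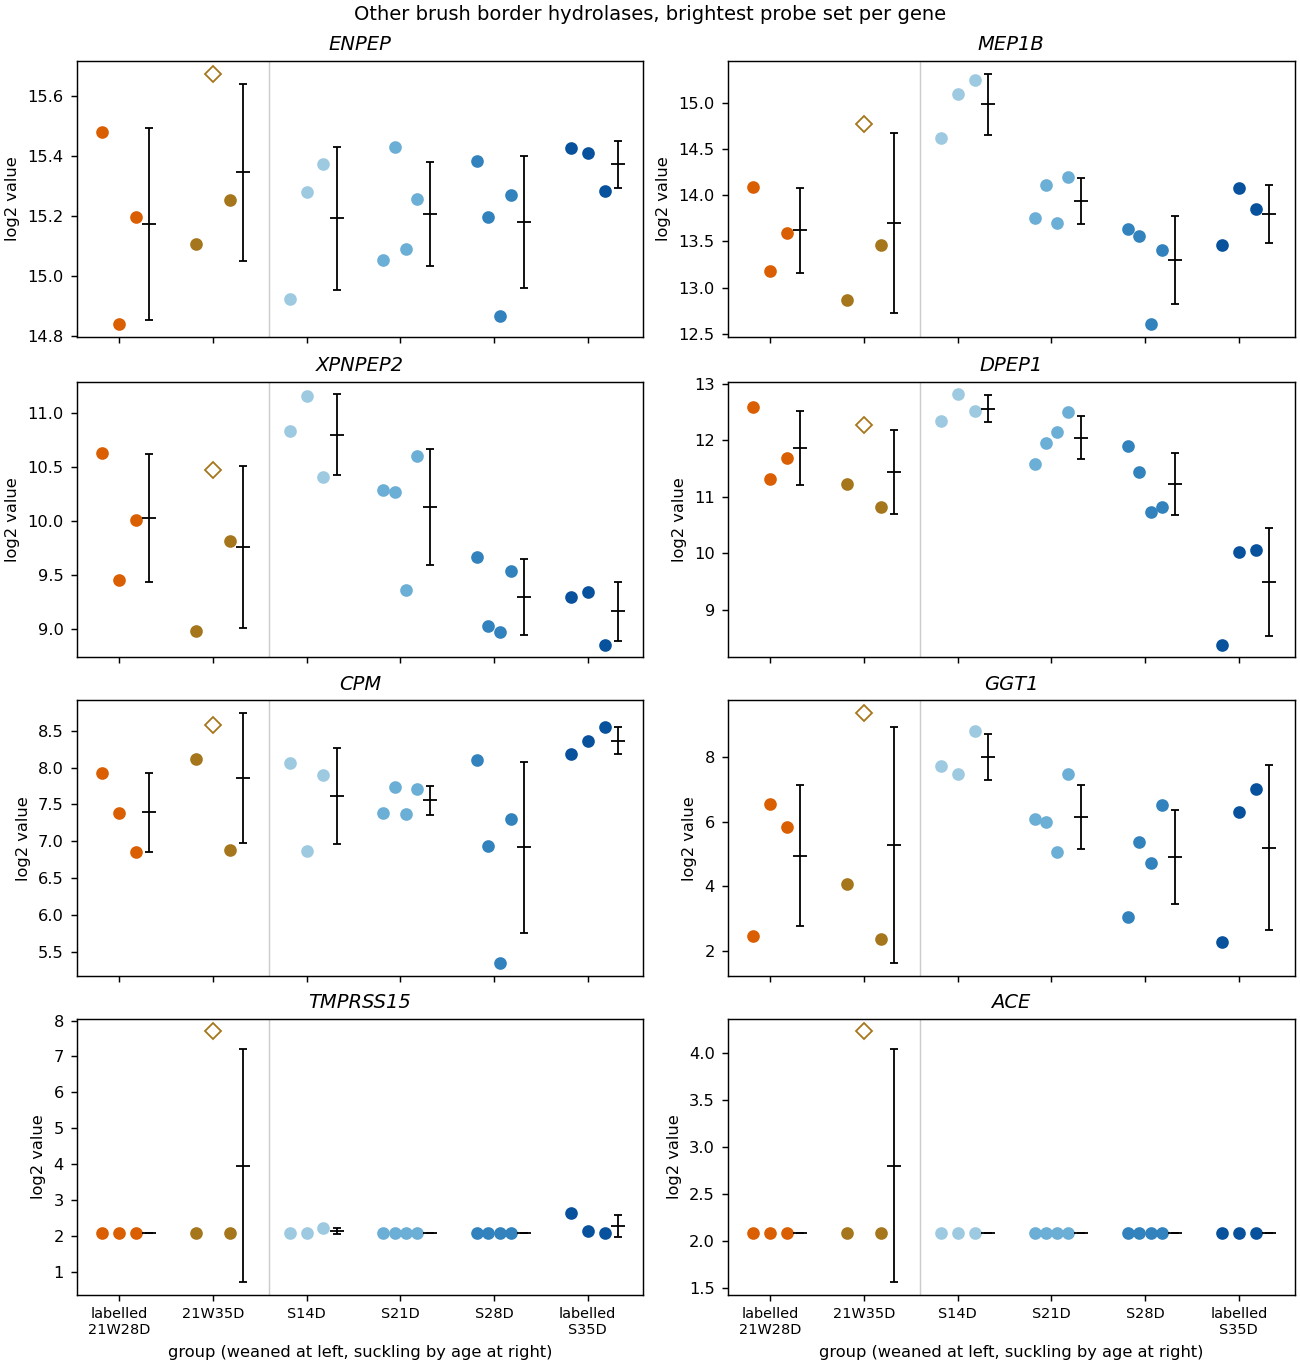
Log2 signal of 8 other brush border hydrolases (vertical axes, each with its own range), with weaned groups at left and suckling groups by age at right. Points are arrays, the open diamond is 21W35D replicate 2, and black marks are the mean and SD. As labelled, DPEP1 and XPNPEP2 are lower at later suckling ages, and TMPRSS15 and ACE stand above the lowest value mainly in 21W35D replicate 2.

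The surroundings of the hydrolases in the brush border were read from 3 further lists. Of 10 nutrient transporters measured, SLC5A1, the sodium and glucose cotransporter, rose in S21D piglets relative to S14D piglets by 0.81 ± 0.26 (SE, limma adjusted p = 0.0468), and SLC3A1, a subunit of the dibasic amino acid transporter, rose in the arrays labelled S35D relative to S28D piglets by 1.75 ± 0.43 (adjusted p = 0.0311). The median difference of the transporters was -0.05 in the comparison of S21D with S14D and 1.10 in that of the arrays labelled S35D with S28D, with a median of 0 over all probe sets in both. Limma called 14.9% of all probe sets in the first of these comparisons and 6.54% in the second. Of 6 microvillus genes measured, ANKS4B and SLC9A3R1 rose in the arrays labelled S35D relative to S28D piglets. ANKS4B averaged 12.06 in the arrays labelled S35D and 10.58 in S28D piglets (limma adjusted p = 0.0232), and SLC9A3R1 13.44 in the arrays labelled S35D and 12.25 in S28D piglets (adjusted p = 0.0306). SLC9A3R2 fell by 0.62 in S21D piglets relative to S14D piglets, and the median of the 6 was -0.60 in that comparison and 0.98 between the arrays labelled S35D and S28D. With the labels exchanged, SLC3A1 was -0.28, ANKS4B 0.22 and SLC9A3R1 0.47 against S28D, and the medians were 0.04 for the transporters and 0.22 for the microvillus genes.

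Of 11 transcription factors measured that act on enterocyte genes, FOXA1 fell by 1.15 and FOXA2 fell by 1.66 in S21D piglets relative to S14D piglets, and FOXA1 rose by 1.33 in the arrays labelled S35D relative to S28D piglets (a difference of 0.28 with the labels exchanged). THRB also passed in the comparison of S21D with S14D, but averaged 2.09 in S21D piglets and 2.65 in S14D piglets, close to the lowest value. Over all probe sets, 14.9% were called between S21D and S14D and 6.54% between the arrays labelled S35D and S28D. Leaving out single arrays ended each of these calls of the transporters, microvillus genes and transcription factors at least once, for between 1 and 6 of the 7 arrays compared. The differences of these called genes kept their signs without any single array.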

How the data were processed

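The authors scanned 1 Affymetrix porcine array per piglet, normalized the intensities with gcRMA and deposited log2 values, the base being read from their range. GCOS (1.2) and GCRMA (no version given) are listed in the submitters' processing notes. Of 24123 probe sets, 124 controls were left out. Gene symbols came from the platform annotation, where 10069 probe sets had 1 symbol, 198 several and 13732 none. Genes were taken by symbol, and the brightest probe set stood for a gene. limma 3.58.1 in R 4.3.3 fitted 1 mean per group to all 20 arrays, and p-values were adjusted (Benjamini-Hochberg) over 23999 probe sets, with a call at an adjusted p under 0.05. Nothing pairs replicate numbers across groups, and p-values measure the spread between piglets whose litters are not given. From each other list, called genes were named, at most 4 per comparison. The 5 closest genes came from those reaching 6 log2 units in 3 or more arrays. That rule was written for LCT and SI and applied to the 3 genes measured. The genes and lists were chosen with earlier results of these data known. Exchanging the labels of S35D and 21W28D was chosen after seeing the data. The fit was tested on simulated data. The number of arrays limits the precision.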

Additional observations from a re-analysis of the deposited data

How the results depend on the processing

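The number of the 3 genes called stayed at 0 in all 7 pairwise comparisons, the F test over suckling ages and the difference of weaning differences under a 2-fold minimum, a filter on dim probe sets, a fit of only the groups compared, another variance model, median centring, repeated quantile normalization, 1 probe set per gene, exchanged labels and the methods' t-test where it applied. The 2-fold minimum can only remove calls, so it could not have changed a count of 0. Exchanged labels repeat contrasts already tested, except in the F test and in the comparison of 21W28D with S21D. Leaving out single arrays gave a range of 0 to 0. With the replicate number as a block it was also 0 in each; same-numbered arrays did not deviate together as a rule, with r over 0.1 in 18 of 46 pairs and 6 of 20 arrays closest to one of their own number. Of the 13 calls named among the other brush border genes, the block ended 4, those of DPEP1 and SLC9A3R1 between the arrays labelled S35D and S28D, of SLC5A1, and of MEP1B in the F test (adjusted p = 0.0580). Fitting only the groups compared ended 7 of the 13, which included DPEP1, SLC3A1, ANKS4B, SLC9A3R1 and FOXA1 between the arrays labelled S35D and S28D, and the methods' test after adjustment ended 8 of the 10 it could give. The dim filter, the other variance model, repeated quantile normalization and 1 probe set per gene ended 0, median centring 1 (SLC5A1), the 2-fold minimum 3 (SLC5A1, SLC9A3R2 and THRB) and the epithelial score 6 (SLC3A1, SLC9A3R2, SLC9A3R1, THRB and both calls of FOXA1). The setting in which any of ANPEP, DPP4 and VIL1 was called was the epithelial score subtracted from every probe set, which gave 1 call between the arrays labelled S35D and S28D, ANPEP at -0.52, turned in sign (adjusted p = 0.0398). In that setting 20030 of 23999 probe sets were called, since subtraction also shifts probe sets at the lowest value, so the call says nothing about ANPEP in particular. When S35D and 21W28D exchanged labels, DPEP1 turned to 0.64 and SLC3A1 to -0.28 against S28D, neither called, and 7 of the 8 calls that involve these groups were lost. Precision is limited by 3 or 4 arrays a group, and 41.6% of all values lay within 1 log2 unit of the lowest value, though none of ANPEP, DPP4 or VIL1.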

Other observations

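In 21W35D replicate 2, the array in which ANPEP, DPP4 and VIL1 were highest of all 20, TMPRSS15 (enteropeptidase, which activates trypsinogen and is known from the proximal small intestine) read 7.70, against at most 2.64 in any other array. ACE read 4.23 there and 2.08 in the other 19 arrays, and GGT1 read 9.38, against at most 8.83 elsewhere. These values were singled out after they were seen, and their source was not tested.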
